A study of Homo sapiens with 22 samples.

Results

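The genes described here are those that build the extracellular matrix and those that crosslink it: collagens, laminins, fibrillins, fibulins, thrombospondins, matrilins, tenascins, lysyl oxidases, glypicans and syndecans, all taken by symbol, and 12 single genes such as FN1, ACAN and SPARC. The rule picked 63 of the 6825 genes listed in the deposited tables. The study sequenced RNA of 11 established human glioblastoma lines, untreated and in serum, as 2 libraries of each. The table of 8 lines (U-138MG, SNU-1105, U-87MG, LN-229, KALS-1, T98G, KNS-42, LN-18) lists 18 of these genes among 2221, the table of 3 lines (A-172, AM-38, SNU-466) lists 58 among 5383, and 13 are in both. A-172, KNS-42, LN-18 and LN-229 were grown in DMEM, AM-38, T98G, U-138MG and U-87MG in EMEM, and KALS-1, SNU-466 and SNU-1105 in RPMI 1640, with 20% fetal bovine serum for AM-38 and 10% for the others. Medium and serum therefore cannot be told apart from the line. The labels do not say if both libraries of a line stem from separate cultures. A p-value therefore measures only how far these libraries spread, which may be technical.

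The extracellular matrix is a mesh of secreted proteins that cells anchor to. Fibrillar collagens form cables, type IV collagen and laminins form the sheet of the basement membrane, fibronectin and fibrillin form fine fibrils, and proteoglycans fill the space between them with sugar chains. Lysyl oxidases oxidise lysines of collagen and elastin so that neighbouring chains become covalently bound. In normal brain, basement membrane surrounds the vessels, whereas the tissue between is rich in hyaluronan and proteoglycans such as brevican, and poor in fibrillar collagen.

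Library totals ran from 16958669 to 21213215 reads. Levels are read counts per 1000000 reads of that total (CPM, with SD over the n = 2 libraries of a line), and 3 reads, the upper limit that a count of 0 allows, equal 0.141 to 0.177 CPM for counting error alone. How genes came to be listed is not stated. Mean levels differed 2-fold or more for 99.3% of the 2221 genes between the trio T98G, LN-18 and KALS-1 and the remaining 5 lines, and for 93.9% of the 5383 genes between SNU-466 and its 2 companions. Shares of genes called are therefore high throughout and are read against all listed genes. The T98G libraries differed most from each other, with 52.8% of genes within 1.5-fold, against 66.8% in SNU-1105 and 81.7% to 93.6% in the other lines. Of the glial markers listed, SOX2 ranged from 0.0265 CPM in T98G to 800.3 CPM in KNS-42. GFAP and SOX10 were low in A-172 (1.36 and 0.0256 CPM) and AM-38 (0.314 and 0.0973 CPM) but not in SNU-466 (38.3 and 659 CPM), while NES was lowest in AM-38, at 134 CPM.

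Among the 8 lines, U-138MG and LN-229 were most often the higher of a pair for the matrix genes, and T98G and LN-18 most often the lower. FN1, the fibronectin gene, spanned from 163 CPM in KNS-42 to 14748 CPM in U-138MG. All 18 genes were tested and all 18 differed among the lines, where 99.7% of all 2095 tested genes did. Over the 28 pairs of lines, 338 of 504 tests of these genes were called, or 67.1%, against 57.8% for all genes (edgeR quasi-likelihood test, Benjamini-Hochberg adjusted p under 0.05 and at least 2-fold). In its 7 pairs, U-138MG was the higher line in 70 of 126 tests (55.6%, against 31% over all genes) and LN-229 in 66 (52.4%, against 28.9%). T98G was the lower line in 69 of 126 (54.8%, against 37.7%) and LN-18 in 63 (50.0%, against 33.6%). These counts per line are on library totals. TMM scaling factors of the listed genes moved the median log2 difference of all genes by 0.73 in T98G and 0.61 in LN-18. In U-138MG and LN-229 they moved it by -0.21 and -0.20, so the counts per line depend on the scaling. The median range of line means was 6.63 on the log2 scale for these genes and 4.71 for all tested genes.

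A gene was called highest in a line when it passed the test against each of the other 7. That held for 9 of the 18 genes, against 39.7% of all tested genes: FBN1, COL22A1 and COL5A3 in U-138MG (all genes, 3.20%), THBS2 and FREM2 in LN-229 (3.72%), LAMB4 and LAMC3 in LN-18 (8.40%), and COL26A1 in KALS-1 and GPC3 in KNS-42 (each 7.73%). Called lowest against each of the other 7 were 4 genes (all genes, 9.64%): LAMA4 in KALS-1 (1.34%), LAMC1 in LN-18 (2.20%), and COL11A1 and COL4A6 in T98G (3.29%). The T98G calls rest on few reads there, 22 for COL11A1, at 1.06 and 0.117 CPM, and 0 for COL4A6. Leaving out 1 library of KALS-1, LN-18 or LN-229 lowered the count of lowest genes to 1 or 2. Of the 18 genes, 15 had a lower mean in KALS-1, LN-18 and T98G than in the other 5 lines, and LAMB4, LAMC3 and COL26A1 a higher one. Over all listed genes the share with a lower mean was 59.6%. The libraries of the 2 sides did not overlap for GPC6 and COL4A6, both lower in the 3 lines, where 6.75% of all listed genes were lower without overlap and 6.26% higher. Since the listed genes appear to have been chosen on this division, the direction is given as a description.

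**Figure D1:**
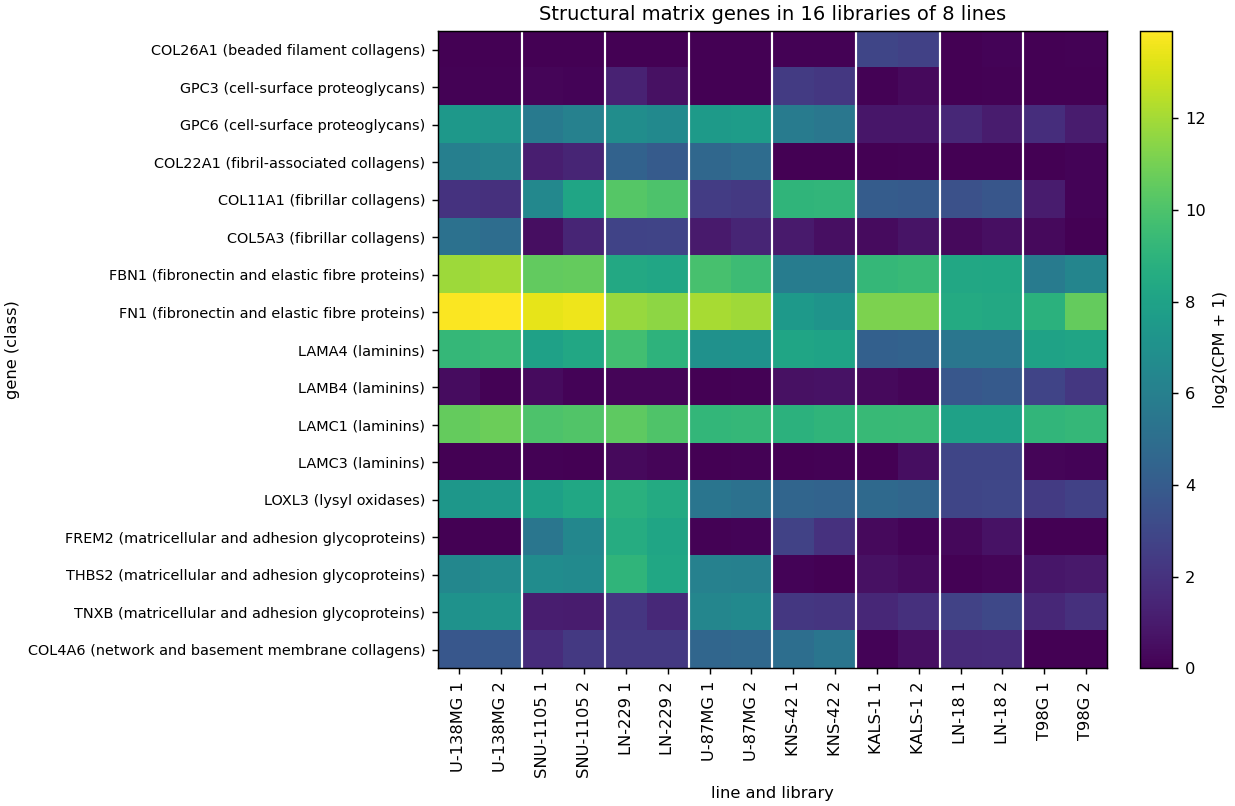
Each cell is the level of 1 gene (rows, with its class) in 1 library (columns, 2 per line), as log2(CPM + 1). FN1 and FBN1 are brightest in U-138MG and SNU-1105, COL11A1 in LN-229 and KNS-42, and GPC6 is dark in all 6 libraries of KALS-1, LN-18 and T98G.

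FN1 and FBN1 reached the highest levels of the 18 genes, both in U-138MG. FN1 (GRCh38 chromosome 2, 215360440 to 215436172), whose protein links collagen and integrins, stood at 14292 and 15204 CPM in U-138MG, 10626 and 11859.6 in SNU-1105, 4261 and 3868 in U-87MG and 3484 and 2909 in LN-229. It stood at 2233 and 2266 CPM in KALS-1, 476 and 1546 in T98G, 356 and 333 in LN-18 and 179 and 148 in KNS-42. The libraries of U-138MG and SNU-1105 lay above all others, and those of KNS-42 below all others. U-138MG and SNU-1105 were not called different (log2 fold change -0.39 for SNU-1105 over U-138MG, SE 0.32, adjusted p = 0.33), while U-138MG exceeded KNS-42 90.4-fold (log2 fold change -6.50 for KNS-42 over U-138MG, SE 0.41, adjusted p = 1.16e-10). The T98G libraries, 476 and 1546 CPM, lay far apart but both between those of KALS-1 and LN-18. In bulk RNA, fewer expressing cells and less RNA per cell cannot be told apart.

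FBN1 (chromosome 15, 48408306 to 48645849), which encodes the main protein of microfibrils, was read at 3643 and 4227 CPM in U-138MG, 1501 and 1574 in SNU-1105, 926 and 743 in U-87MG and 607 and 651 in KALS-1. The levels were 333 and 296 CPM in LN-229, 319 and 307 in LN-18, 53.2 and 77.7 in T98G and 55.4 and 55.6 in KNS-42. Both U-138MG libraries exceeded every other library, with a smallest log2 fold change of 1.36 against any other line (largest adjusted p = 0.000132). The order of FN1 and FBN1 was not the same. The libraries of KALS-1 and LN-18 lay within the range of those of LN-229 and U-87MG for FBN1, and under them for FN1. For FN1, KALS-1 and LN-229 were not called different. Neighbours in the order of FBN1 that were not called different were SNU-1105 and U-87MG, U-87MG and KALS-1, KALS-1 and LN-229, LN-229 and LN-18, and T98G and KNS-42.

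**Figure D2:**
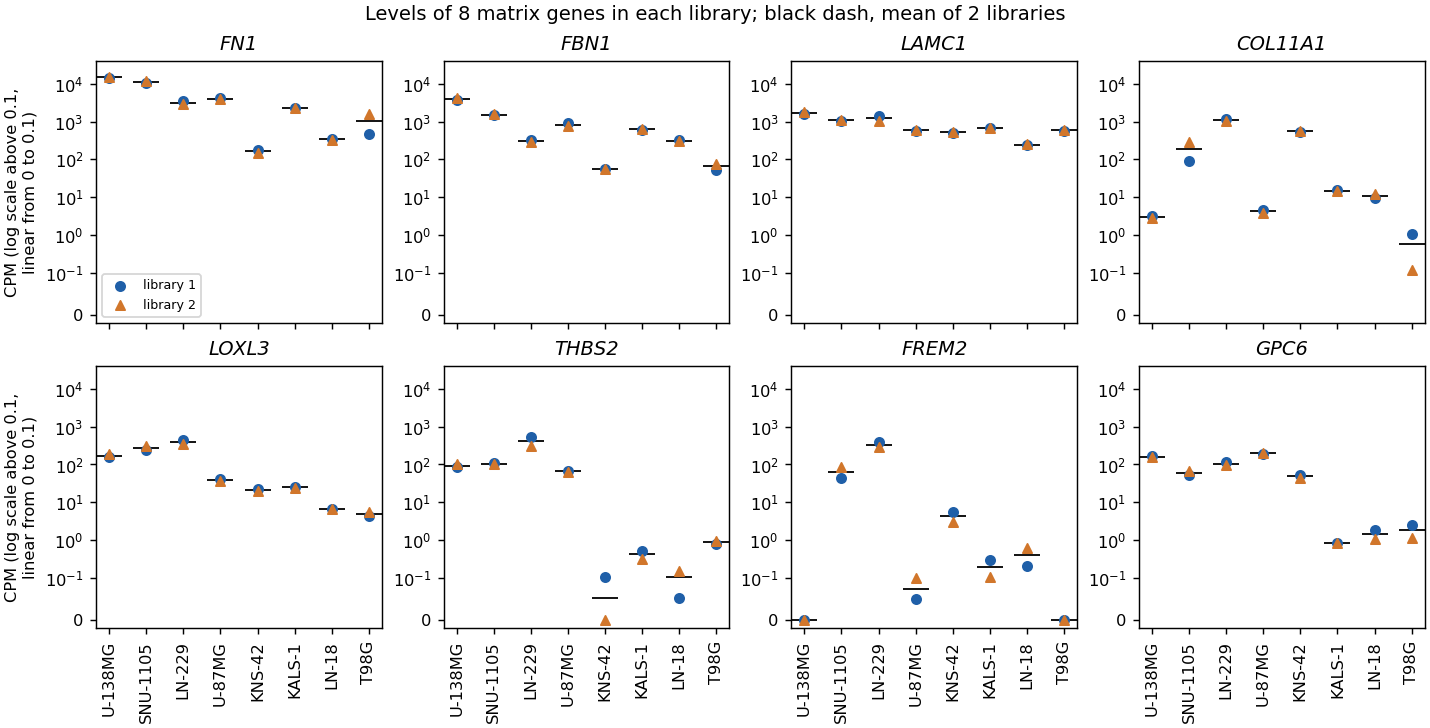
Each panel gives the CPM of 1 gene in the 8 lines, with a circle and a triangle for the 2 libraries and a dash for their mean. By mean, FN1 and FBN1 are highest in U-138MG and lowest in KNS-42. COL11A1 is high in LN-229, KNS-42 and SNU-1105 and low in U-138MG and U-87MG.

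Of the collagens of this table, COL11A1 was lower in U-138MG, the line with the most FN1, than in LN-229, SNU-1105 and KNS-42, while COL5A3 and COL22A1 were highest in U-138MG. COL11A1 (chromosome 1, 102876467 to 103108872), which encodes a minor fibrillar chain that sets fibril width in cartilage, stood at 1189 and 1025 CPM in LN-229, 89 and 283 in SNU-1105 and 539.9 and 564 in KNS-42. In the other lines it stood at 9.77 and 12.2 CPM in LN-18, 15.6 and 14.2 in KALS-1, 4.49 and 3.89 in U-87MG, 3.12 and 2.74 in U-138MG and 1.06 and 0.117 in T98G. LN-229 was 2.01-fold above KNS-42 (adjusted p = 0.0378), a difference at the 2-fold threshold that was not called with DESeq2 or limma, or without any 1 library of KALS-1, KNS-42, LN-18 or LN-229. COL5A3, a chain of type V collagen, was at 35.6 and 30.3 CPM in U-138MG, 5.9 and 6.19 CPM in LN-229 and at most 1.7 CPM elsewhere. The U-138MG libraries were above all others (smallest log2 fold change 2.44, adjusted p = 0.00134).

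COL22A1, a collagen of tissue junctions, was at 63.4 and 72.7 CPM in U-138MG, 23.6 and 29.6 in U-87MG, 20.0 and 14.9 in LN-229 and 1.27 and 1.7 in SNU-1105. It had no read in KNS-42 and LN-18, 1 read in KALS-1 and 2 in T98G, which puts U-138MG at least 885-fold above KNS-42 (against 3 reads over the 2 libraries). U-138MG was above each other line (smallest log2 fold change 1.36, adjusted p = 0.00686). COL4A6, a basement membrane chain, was at 31.6 and 41.5 CPM in KNS-42, 22.6 and 24.7 in U-87MG and 12.9 and 13.2 in U-138MG, at 2.14 to 3.96 CPM in LN-229, SNU-1105 and LN-18, and at 0.117 and 0.459 CPM in KALS-1. T98G had no COL4A6 read, at least 438-fold under KNS-42. COL26A1 was read at 6.36 and 5.36 CPM in KALS-1, with 1 or 2 reads in each of KNS-42, LN-18 and T98G and none in the other 4 lines.

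Laminins are trimers of an alpha, a beta and a gamma chain. The gamma 1 chain gene LAMC1 (chromosome 1, 183023460 to 183145592) varied least of the 18, with 243 and 249.6 CPM at the bottom in LN-18 and 1584 and 1774 at the top in U-138MG. LN-18 was below each other line (closest difference -1.07 on the log2 scale, adjusted p = 0.000801), while no other neighbouring lines in the order were called different. LAMA4, the alpha 4 chain of vessel and mesenchymal basement membrane, was at 832 and 504 CPM in LN-229, 619 and 649 in U-138MG, 244 and 318 in SNU-1105 and 292 and 268 in KNS-42. It was at 255 and 271 CPM in T98G, 131 and 137 in U-87MG, 42.7 and 42.7 in LN-18 and 18.2 and 19.6 in KALS-1. The libraries of LN-229 lay on both sides of those of U-138MG, and KALS-1 was below each other line (-1.17, adjusted p = 0.00558).

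The beta 4 and gamma 3 chain genes LAMB4 and LAMC3 were low, and LN-18 led for both. LAMB4 was at 12.5 and 14.6 CPM in LN-18, 6.2 and 3.68 CPM in T98G and at most 0.613 CPM elsewhere (smallest log2 fold change of LN-18 1.45, adjusted p = 0.0151). LAMC3, a gamma chain of nerve and vessel, was at 6.43 and 6.56 CPM in LN-18 and no more than 0.408 CPM in any other line (smallest log2 fold change 4.84, adjusted p = 2.05e-05). These levels are far under LAMC1 in the same line, which was at 29.1 FPKM, a scale that allows for gene length, against 0.725 FPKM for LAMC3.

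Thrombospondin 2, a matricellular protein that binds proteases and inhibits vessel growth, was high in one set of lines and near 0 in another. THBS2 (chromosome 6, 169215780 to 169254044) stood at 548 and 307 CPM in LN-229, 107 and 99.9 in SNU-1105, 83.9 and 103 in U-138MG and 66.9 and 64.2 in U-87MG. The other lines had 0.0522 and 0.153 CPM in LN-18, 0.795 and 0.935 in T98G, 0.525 and 0.306 in KALS-1 and 0.103 and 0 in KNS-42. LN-229 was above each other line (smallest log2 fold change 2.05, adjusted p = 6.03e-05). At the 2-fold threshold, SNU-1105 and U-138MG were not called different, nor were U-138MG and U-87MG. Both SNU-1105 libraries lay above those of U-87MG. KNS-42, which shared high GPC6 with those lines, had 2 THBS2 reads in both libraries.

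FREM2, a basement membrane protein that acts in a complex with FRAS1, was at 389.7 and 284 CPM in LN-229, 43.3 and 84.4 in SNU-1105 and 5.61 and 3.02 in KNS-42. U-138MG and T98G had no FREM2 read, and the libraries of U-87MG, KALS-1 and LN-18 were at most at 0.611 CPM. LN-229 was above each other line (smallest log2 fold change 2.40, adjusted p = 0.000257). The FRAS1 gene itself, which is outside the rule, was highest in KALS-1 (165 ± 5.56 CPM) and at 0.885 ± 0.0405 CPM in LN-229, so the 2 partners peaked in different lines. TNXB, the tenascin X gene, stood at 137 and 145 CPM in U-138MG and 81.8 and 96.3 in U-87MG and at 1.1 to 6.92 CPM in the other lines. U-138MG and U-87MG differed by under 2-fold (adjusted p = 0.0305). TNXB has a partial near-identical copy, TNXA, so its counts are uncertain.

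The glypican gene GPC6 (chromosome 13, 93226842 to 94407401), which encodes a heparan sulfate proteoglycan held to the membrane by a lipid anchor, was at 191 and 204 CPM in U-87MG, 166 and 156 in U-138MG, 113 and 96.6 in LN-229, 51.7 and 67.7 in SNU-1105 and 53.9 and 45 in KNS-42. It was at 2.54 and 1.11 CPM in T98G, 1.88 and 1.07 in LN-18 and 0.817 and 0.817 in KALS-1. No library of the first 5 lines overlapped with those of the other 3. GPC3 was low throughout and highest in KNS-42 (4.27 and 3.78 CPM), with 1.52 and 0.558 CPM in LN-229 and at most 0.255 CPM elsewhere. LOXL3, the 1 lysyl oxidase of this table, stood at 453 and 356 CPM in LN-229, 235 and 314 in SNU-1105 and 159.9 and 185 in U-138MG. Its other levels were 40.7 and 35.6 CPM in U-87MG, 25.8 and 23.3 in KALS-1, 22 and 20.1 in KNS-42, 6.58 and 6.72 in LN-18 and 4.4 and 5.55 in T98G. LN-229 exceeded T98G 81.2-fold (log2 fold change 6.34 for LN-229 over T98G, SE 0.26, adjusted p = 7.20e-13), and the steps from LN-229 to SNU-1105 and from there to U-138MG were under 2-fold.

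Other matrix genes in the table of 8 lines, taken from lists of collagen processing enzymes and further matrix proteins, peaked in several lines. Of 14 further matrix genes tested, all 14 differed among the lines, near the share of all genes (99.7%). Called highest were 4 in U-138MG (all genes, 3.20%), 2 in KNS-42 (7.73%) and 1 in KALS-1 (7.73%). HAS2, which makes hyaluronan, ran from 0.159 CPM in T98G through 28.6 ± 12 CPM in U-87MG to 332 ± 43 CPM in U-138MG. KNS-42 led for SPOCK2, a proteoglycan gene, at 273 ± 7.97 CPM, and for MFAP5, a microfibril protein gene, at 134 ± 13.7 CPM with no read in LN-229 and T98G. HMCN1, which encodes the basement membrane protein hemicentin, was at 1186 ± 724 CPM in SNU-1105, 763 ± 338 CPM in LN-229 and 0.784 CPM in KALS-1. Of 29 collagen processing genes this table lists 2. P3H2, a collagen prolyl hydroxylase, was at 266 ± 99.96 CPM in T98G, 215 ± 2.23 CPM in KALS-1 and 11.1 ± 0.315 CPM in U-87MG, with no line called highest, and ADAMTS14, a procollagen N-proteinase, was at 57.3 ± 4.3 CPM in U-138MG with no read in LN-18.

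In the table of 3 lines the matrix of SNU-466 stood apart in amount, and each line led for its own set of genes. COL1A2, THBS1, SPARC and COL11A1 were the most abundant in SNU-466, LAMB3 and TGFBI led in AM-38, and COL7A1 and THBS2 led in A-172. All 58 genes were tested and all 58 differed among the lines (98.1% of 5035 genes tested). Over the 3 pairs, 144 of 174 tests were called (82.8%, all genes 75.0%). In SNU-466, 39 of 58 were higher than in A-172 (all genes, 34.8%) and 15 lower (49.9%). Against AM-38, 39 were higher (40.1%) and 13 lower (51.6%). AM-38 was higher than A-172 for 16 (24.5%) and lower for 22 (24.1%). The median log2 fold change of SNU-466 over A-172 was 2.18 for the 58 genes and -1.28 for all tested genes, and over AM-38 2.77 and -1.23. Of the 58, 53 were higher in 1 line than in each other one (all genes, 64.4%): 38 genes in SNU-466 (all genes, 32.0%), 9 in AM-38 (19.3%) and 6 in A-172 (13.1%). Lower in 1 line than in each other one were 31 (58.4%), namely 15 in AM-38 (9.91%), 10 in SNU-466 (44.3%) and 6 in A-172 (4.13%). Since the genes of this table appear to be chosen on SNU-466, its counts are read only against those shares.

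**Figure D3:**
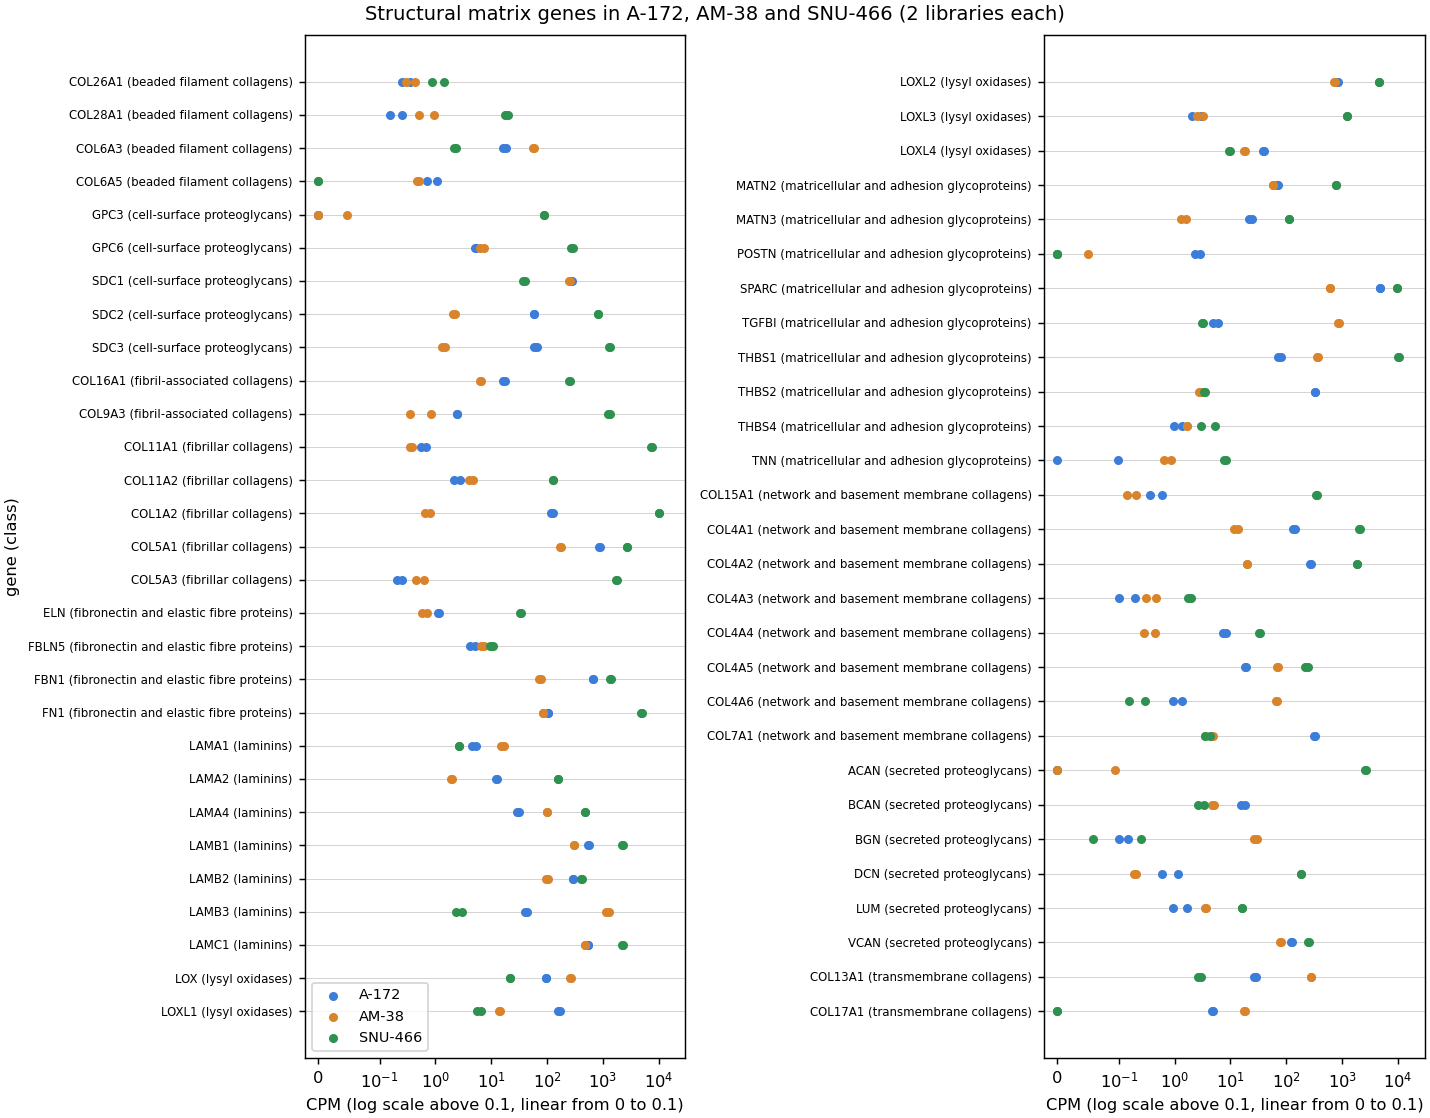
Each row is 1 gene with its class, and points give the CPM of the 2 libraries of A-172, AM-38 and SNU-466. The points of SNU-466 lie to the right for all 5 listed fibrillar collagens, and those of AM-38 for LAMB3, COL13A1, COL17A1, TGFBI and BGN.

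All 5 fibrillar collagen genes listed for these lines were higher in SNU-466 than in either other line. Other fibrillar chains, such as COL1A1 and COL3A1, are not listed and have no value here. COL1A2 (chromosome 7, 94394561 to 94431232), which encodes the alpha 2 chain of type I collagen, stood at 10219.9 and 10197 CPM in SNU-466, against 125 and 119.7 in A-172 and 0.801 and 0.653 in AM-38. The 3 lines did not overlap, and SNU-466 exceeded A-172 83.4-fold (log2 fold change 6.38 for SNU-466 over A-172, SE 0.04, adjusted p = 2.32e-95) and A-172 exceeded AM-38 168-fold. COL5A1, a chain of type V collagen that starts fibrils, was at 2716 and 2710.2 CPM in SNU-466, against 882 and 863 in A-172 and 175 and 173 in AM-38. Its fold between SNU-466 and A-172 was 3.11, the smallest of the 5. COL11A1 was read at 7448 and 7313 CPM in SNU-466, against 0.666 and 0.545 in A-172 and 0.377 and 0.351 in AM-38. COL5A3 gave 1713 and 1764 CPM in SNU-466, against 0.205 and 0.248 in A-172 and 0.613 and 0.452 in AM-38, and COL11A2, on chromosome 6, 128 and 127 CPM in SNU-466, against 2.15 and 2.73 in A-172 and 4.01 and 4.67 in AM-38. For COL11A1 the libraries of A-172 and AM-38 were all under 1 CPM and were not told apart (adjusted p = 0.148), so this chain was near the floor in both.

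On the FPKM scale, which allows for gene length, the make-up of the 5 listed fibrillar genes, not of the whole family, differed between lines. COL5A1 held 86.9% ± 0.121 (SD, n = 2) of their summed FPKM in A-172 and 95.3% ± 0.282 in AM-38, but 10.7% ± 0.0161 in SNU-466. There COL1A2 held 41.5% ± 0.0653 and COL11A1 35.7% ± 0.349. The summed level was 2273 ± 7.13 FPKM in SNU-466, 89.9 ± 1.49 FPKM in A-172 and 16.3 ± 0.0778 FPKM in AM-38. These differences were many times the spread between libraries. Collagens that sit on fibrils went the same way: COL9A3, a cartilage chain, was at 1226 and 1315 CPM in SNU-466, against 2.46 and 2.43 in A-172 and 0.849 and 0.351 in AM-38, and COL16A1 at 247 and 254 CPM in SNU-466, against 16.2 and 17.6 in A-172 and 6.46 and 6.22 in AM-38. AM-38 was lowest for both, and the 3 lines did not overlap.

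Type IV collagen, the network of the basement membrane, is encoded by 6 genes in 3 pairs, each pair lying head to head and read outwards from a shared start region. All 6 genes are listed, and they are shown here because 1 pair went together across the lines and another came apart. From RefSeq (GRCh38.p14), 300 bases around the start of 5 of them are printed below, 250 before to 50 after the start, 5′ to 3′ on the strand of the gene. Capitals mark 3 promoter motifs on either strand, the CCAAT box, the GC box read as GGGCGG and the TATA box read as TATAAA.
COL4A2, chr13:110307034-110307333, plus strand: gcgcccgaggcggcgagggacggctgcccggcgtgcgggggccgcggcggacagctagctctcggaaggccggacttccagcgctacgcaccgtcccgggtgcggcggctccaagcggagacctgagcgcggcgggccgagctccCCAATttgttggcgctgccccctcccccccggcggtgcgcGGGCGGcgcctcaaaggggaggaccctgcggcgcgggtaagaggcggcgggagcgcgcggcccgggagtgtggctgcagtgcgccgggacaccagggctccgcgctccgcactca
COL4A5, chrX:108439588-108439887, plus strand: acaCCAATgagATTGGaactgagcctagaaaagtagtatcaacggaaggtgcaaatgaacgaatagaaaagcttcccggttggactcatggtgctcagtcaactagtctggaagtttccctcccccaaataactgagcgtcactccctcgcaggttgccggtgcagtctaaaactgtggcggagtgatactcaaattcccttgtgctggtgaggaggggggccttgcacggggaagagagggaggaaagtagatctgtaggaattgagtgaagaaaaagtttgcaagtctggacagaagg
COL4A6, chrX:108439409-108439708, minus strand: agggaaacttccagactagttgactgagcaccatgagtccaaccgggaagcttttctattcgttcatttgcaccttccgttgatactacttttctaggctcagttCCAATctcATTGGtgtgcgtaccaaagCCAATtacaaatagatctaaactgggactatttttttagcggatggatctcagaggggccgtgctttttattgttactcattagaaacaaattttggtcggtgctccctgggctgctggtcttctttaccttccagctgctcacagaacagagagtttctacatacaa
COL4A3, chr2:227164374-227164673, plus strand: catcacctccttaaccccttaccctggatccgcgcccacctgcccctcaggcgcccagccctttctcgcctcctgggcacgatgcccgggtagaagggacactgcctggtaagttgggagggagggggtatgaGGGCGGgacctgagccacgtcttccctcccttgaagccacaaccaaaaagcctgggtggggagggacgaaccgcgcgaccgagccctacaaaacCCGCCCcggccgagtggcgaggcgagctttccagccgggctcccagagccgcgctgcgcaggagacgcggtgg
COL4A4, chr2:227164156-227164455, minus strand: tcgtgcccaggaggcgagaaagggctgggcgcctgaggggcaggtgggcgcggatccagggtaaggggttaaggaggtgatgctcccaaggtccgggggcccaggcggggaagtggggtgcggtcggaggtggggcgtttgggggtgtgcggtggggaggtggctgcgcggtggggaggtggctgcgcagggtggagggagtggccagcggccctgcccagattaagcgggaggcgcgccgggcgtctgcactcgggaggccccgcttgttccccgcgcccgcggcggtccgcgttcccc
The starts of COL4A1 and COL4A2 lie 127 bases apart, so the window of COL4A2 also holds the start of COL4A1, at base 124. Those of COL4A5 and COL4A6 lie 380 bases apart and those of COL4A3 and COL4A4 419. Distances are between the closest annotated starts, and for COL4A6 the window of the start nearest to COL4A5 is printed. Read counts are per gene and not per start. The windows of COL4A5 and COL4A6 hold 2 and 3 CCAAT boxes and no GC box. The windows overlap, and both boxes of COL4A5 are the same bases as 2 of those of COL4A6. Their GC content is 49.3% and 43.7%, against 77.7% for COL4A2, 67.7% for COL4A3 and 74% for COL4A4. The CCAAT box was found in 34.6%, the GC box in 45% and the TATA box in 11.5% of all 35116 windows of this length. The 49 of 63 genes with an entry have 63 windows between them, of which 19 hold a CCAAT box, 36 a GC box and 7 a TATA box.

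COL4A1 and COL4A2, whose chains form the common type IV collagen, had the same order of lines. COL4A1 was at 2058 and 2044 CPM in SNU-466, against 142 and 134 in A-172 and 11.7 and 13.6 in AM-38, and COL4A2 at 1818 and 1835 CPM in SNU-466, against 281 and 269 in A-172 and 19.7 and 19.9 in AM-38. SNU-466 was above A-172 and A-172 above AM-38 for both, with no overlap. Per length, the ratio of COL4A1 to COL4A2 was 1.49 and 1.46 in the SNU-466 libraries, 0.666 and 0.653 in A-172 and 0.784 and 0.903 in AM-38. The annotated genes overlap by 1422 bases on opposite strands, and it is not stated if the counting used the strand.

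COL4A5 and COL4A6, which neighbour each other on chromosome X, had different orders. COL4A5 stood at 244 and 220.1 CPM in SNU-466, against 19.2 and 17.9 in A-172 and 68.3 and 70.5 in AM-38, and COL4A6 at 0.295 and 0.153 CPM in SNU-466, against 0.922 and 1.34 in A-172 and 65.8 and 67.9 in AM-38. COL4A5 was highest and COL4A6 lowest in SNU-466, where COL4A6 had 8 reads in both libraries. AM-38 exceeded SNU-466 for COL4A6 (log2 fold change -8.21 for SNU-466 over AM-38, SE 0.19, adjusted p = 9.91e-56) and was under it for COL4A5 (log2 fold change 1.74 for SNU-466 over AM-38, SE 0.06, adjusted p = 2.09e-44). Per length, COL4A5 was 0.811 and 0.813 times COL4A6 in the AM-38 libraries and 16.1 and 10.8 times in those of A-172. COL4A4 was at 33 ± 1.59, 7.83 ± 0.854 and 0.367 ± 0.119 CPM in SNU-466, A-172 and AM-38, and COL4A3 stayed at or under 1.94 CPM in every library. COL4A1 and COL4A2 held 36.1% ± 0.457 and 54.8% ± 0.0402 of the type IV FPKM in A-172 and 54.4% ± 0.0788 and 36.9% ± 0.468 in SNU-466, whereas in AM-38 COL4A6 held 48% ± 0.208 and COL4A5 39% ± 0.115 of a total of 15 ± 0.389 FPKM.

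**Figure D4:**
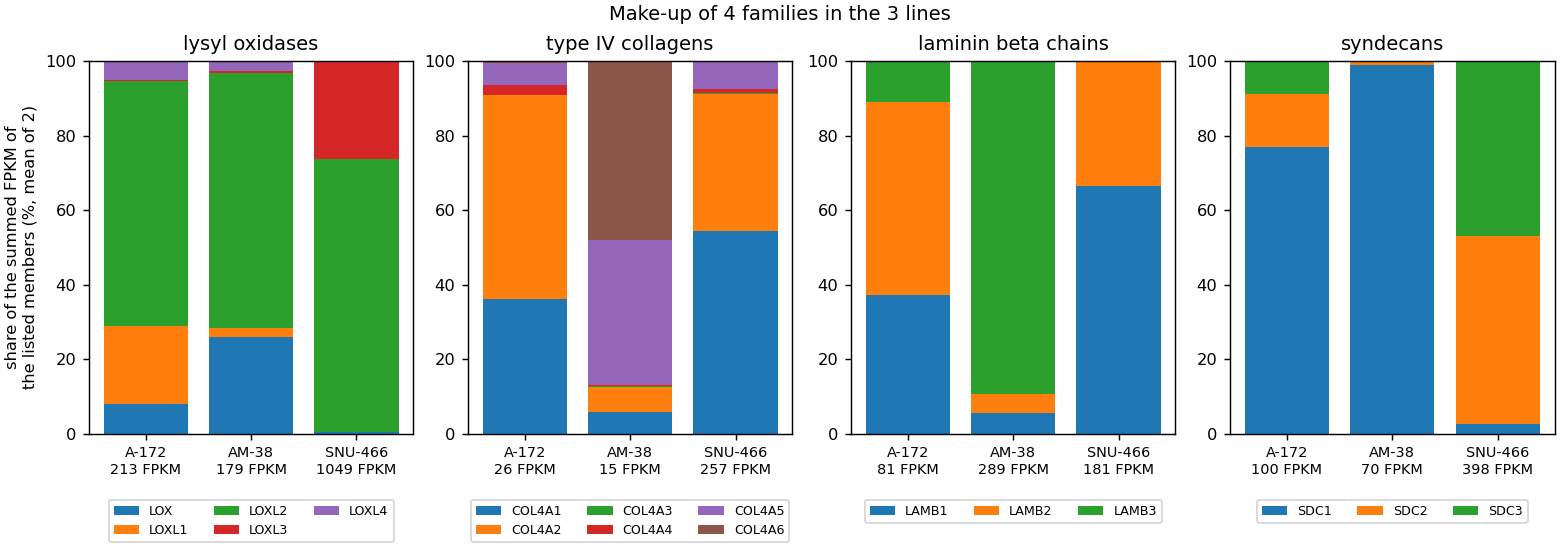
Bars split the summed FPKM of 4 families among their listed genes, as the mean of 2 libraries per line, with the sum under each bar. LOXL3 fills 26.1% of the lysyl oxidase bar in SNU-466 and 0.259% in A-172, COL4A5 and COL4A6 most of the type IV bar in AM-38, LAMB3 most of the beta chain bar in AM-38, and SDC2 and SDC3 most of the syndecan bar in SNU-466.

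COL17A1, a transmembrane collagen of hemidesmosomes, was at 18.3 and 17.4 CPM in AM-38 and 4.82 and 4.71 CPM in A-172, with no read in SNU-466, at least 217-fold under AM-38. COL13A1, another transmembrane collagen, was at 2.59 and 2.95 CPM in SNU-466, against 26.5 and 28.2 in A-172 and 272 and 273 in AM-38. COL7A1, which forms anchoring fibrils, was at 4.3 and 3.56 CPM in SNU-466, against 309 and 329.7 in A-172 and 3.49 and 4.82 in AM-38. Thus AM-38 had the highest level of both transmembrane collagens, and A-172 for COL7A1, where AM-38 and SNU-466 were not told apart (adjusted p = 0.632). COL6A3, a chain of the beaded filaments of type VI collagen, was highest in AM-38 and lowest in SNU-466 (2.36 and 2.14 CPM in SNU-466, against 18.2 and 16.4 in A-172 and 56.6 and 59 in AM-38). COL15A1, of the outer basement membrane, was at 347 and 359.6 CPM in SNU-466, against 0.359 and 0.595 in A-172 and 0.141 and 0.201 in AM-38, and COL28A1, a collagen found around Schwann cells, at 20.0 and 17.6 CPM in SNU-466, against 0.154 and 0.248 in A-172 and 0.943 and 0.502 in AM-38. Both were highest in SNU-466. COL26A1 (1.16 ± 0.383 CPM in SNU-466) and COL6A5 (0.885 ± 0.27 CPM in A-172) were low even in the lines given.

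Laminin chains divided between SNU-466 and AM-38. LAMC1 was at 2299.6 and 2177 CPM in SNU-466, against 541 and 533 in A-172 and 470.0 and 483 in AM-38, and LAMB1, the common beta chain, at 2269 and 2219 CPM in SNU-466, against 549.5 and 569.6 in A-172 and 299 and 307 in AM-38. Both were higher in SNU-466, and A-172 and AM-38 were within 2-fold of each other. LAMA4 stood at 485 and 479 CPM in SNU-466, against 28.7 and 31.3 in A-172 and 100.2 and 102 in AM-38, and LAMA2, the alpha chain of muscle and nerve basement membrane, at 159.9 and 159 CPM in SNU-466, against 12.8 and 12.2 in A-172 and 1.93 and 2.01 in AM-38. LAMB2 was at 412 ± 11.8, 289 ± 4.06 and 98.6 ± 5.59 CPM in SNU-466, A-172 and AM-38, under 2-fold apart between the first pair.

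The beta 3 chain, a laminin subunit of epithelial basement membrane, was low in SNU-466 and high in AM-38. LAMB3 (chromosome 1, 209614870 to 209652466) was at 3.01 and 2.29 CPM in SNU-466, against 43.8 and 39.9 in A-172 and 1266 and 1139 in AM-38. AM-38 exceeded A-172 28.7-fold (log2 fold change 4.84 for AM-38 over A-172, SE 0.06, adjusted p = 1.54e-78). Of the summed FPKM of the listed beta chains (LAMB1, LAMB2 and LAMB3), LAMB3 held 89.4% ± 0.549 in AM-38, 11.1% ± 0.682 in A-172 and 0.314% ± 0.0619 in SNU-466. LAMA1, of embryonic basement membrane, was at 16.1 ± 1.68 CPM in AM-38, with 4.92 ± 0.576 in A-172 and 2.63 ± 0.0398 in SNU-466. Keratin genes, the epithelial markers of this table, followed another order, with KRT18 at 983 ± 33.1 CPM in A-172, against 221 ± 12.6 in AM-38 and 0.216 in SNU-466, and KRT8 at 974, 71.2 and 0.296 CPM; their part in the laminin result was not tested.

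FN1 was at 5064 and 4827 CPM in SNU-466, against 102 and 104 in A-172 and 84.4 and 84.7 in AM-38. SNU-466 stood 47.8-fold above A-172 (log2 fold change 5.58 for SNU-466 over A-172, SE 0.05, adjusted p = 2.66e-90), and A-172 and AM-38 were within 2-fold. FBN1 was at 1411 and 1328 CPM in SNU-466, against 668 and 654 in A-172 and 72.4 and 79.2 in AM-38. The lines did not overlap, but the difference between SNU-466 and A-172 (log2 fold change 1.05) fell under 2-fold with TMM or RLE factors of the listed genes. ELN, the elastin gene, was at 33.1 and 33.5 CPM in SNU-466, against 1.13 and 1.14 in A-172 and 0.566 and 0.703 in AM-38, and FBLN5, which helps elastin assemble, at 10.1 ± 1.04, 7.01 ± 0.587 and 4.63 ± 0.606 CPM in SNU-466, AM-38 and A-172.

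The thrombospondin genes THBS1 and THBS2 peaked in different lines. THBS1 (chromosome 15, 39581079 to 39599466), an activator of latent TGF-beta, was at 10281 and 9972 CPM in SNU-466, against 79.9 and 69.6 in A-172 and 354 and 367 in AM-38, and THBS2 at 3.36 and 3.56 CPM in SNU-466, against 324 and 327 in A-172 and 2.69 and 3.01 in AM-38. SNU-466 led for THBS1 by 28.1-fold over AM-38 (log2 fold change 4.81 for SNU-466 over AM-38, SE 0.04, adjusted p = 1.13e-87). A-172, the lowest line for THBS1, led for THBS2 by 93.9-fold over SNU-466 (log2 fold change of SNU-466 over A-172 -6.55, adjusted p = 2.90e-74), while SNU-466 and AM-38 were not told apart (adjusted p = 0.122). SPARC, a collagen-binding glycoprotein, was high in all lines: 9563 and 9680.3 CPM in SNU-466, against 4832 and 4704 in A-172 and 604 and 603 in AM-38. On the FPKM scale SPARC was the most abundant gene of the set in SNU-466, at 2073 FPKM. Its difference between SNU-466 and A-172 was close to 2-fold and fell under that with TMM or RLE factors and without A-172 replicate 2.

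TGFBI, a secreted adhesion protein induced by TGF-beta, was led by AM-38, at 3.13 and 3.16 CPM in SNU-466, against 5.99 and 4.91 in A-172 and 868 and 834 in AM-38. AM-38 exceeded A-172 156-fold (log2 fold change 7.29 for AM-38 over A-172, SE 0.07, adjusted p = 5.03e-83). MATN2 and MATN3, adaptor proteins of the matrix, were both led by SNU-466: MATN2 was at 773 and 783 CPM in SNU-466, against 69.8 and 67.3 in A-172 and 57.3 and 58.3 in AM-38, and MATN3, a cartilage matrilin, at 114 and 114 CPM in SNU-466, against 21.9 and 24.7 in A-172 and 1.6 and 1.31 in AM-38. Each of TNN (8.07 ± 0.402 CPM in SNU-466), THBS4 (4.15 ± 1.62 CPM in SNU-466) and POSTN (2.55 ± 0.379 CPM in A-172) was low even in its highest line. POSTN, the periostin gene, had no read in SNU-466 and 1 in AM-38.

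Among the secreted proteoglycans, ACAN (chromosome 15, 88803442 to 88875354), the aggrecan gene of cartilage and of perineuronal nets, was at 2694 and 2599 CPM in SNU-466, against 0 and 0 in A-172 and 0.0943 and 0 in AM-38. It had no read in A-172, at least 35009-fold under SNU-466, and 2 in AM-38. DCN, the decorin gene, was at 182 and 184 CPM in SNU-466, against 1.13 and 0.595 in A-172 and 0.189 and 0.201 in AM-38, and its neighbour LUM, 28652 bases away on chromosome 12, at 16.1 ± 0.0813, 1.3 ± 0.54 and 3.53 ± 0.122 CPM in SNU-466, A-172 and AM-38. SNU-466 led for both, and A-172 and AM-38 changed places between them. VCAN, the versican gene, was at 256 and 248 CPM in SNU-466, against 119.6 and 126 in A-172 and 78.2 and 79.6 in AM-38; its lead in SNU-466 over A-172 was about 2-fold and was not called with TMM or RLE factors or without A-172 replicate 1. BGN, the biglycan gene, was found in AM-38 (29.7 and 26.2 CPM) and at or under 0.255 CPM in the libraries of the other lines. BCAN, the brevican gene of brain matrix, was highest in A-172 (17 ± 1.78 CPM), with 4.92 ± 0.356 CPM in AM-38 and 2.95 ± 0.506 CPM in SNU-466.

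The syndecan genes were led by different lines. SDC1, the epithelial syndecan, was at 39.9 and 37.6 CPM in SNU-466, against 283 and 271 in A-172 and 257 and 243 in AM-38. SDC2, the mesenchymal one, was at 819 and 817 CPM in SNU-466, against 59.2 and 58.3 in A-172 and 2.03 and 2.21 in AM-38, and SDC3, the neural one, at 1296 and 1343 CPM in SNU-466, against 65 and 57.9 in A-172 and 1.46 and 1.31 in AM-38. SDC1 was lowest and SDC2 and SDC3 highest in SNU-466, with no overlap. SDC1 made up 99% ± 0.0494 of the FPKM of these 3 genes in AM-38, 76.9% ± 0.133 in A-172 and 2.7% ± 0.136 in SNU-466. The order of A-172 and AM-38 for SDC1 turned with RLE factors, and the 2 lines were within 2-fold. GPC6 was at 289.8 and 267 CPM in SNU-466, against 5.17 and 5.41 in A-172 and 7.54 and 6.32 in AM-38. GPC3 was at 89.6 and 86.5 CPM in SNU-466, at least 1165-fold above A-172, which had no read, and AM-38 had 1.

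The lysyl oxidase family, listed here with all 5 genes, was led by LOXL2 in every line, while the next most abundant member differed by line. LOXL2, which acts on type IV collagen, was at 4516 and 4670.1 CPM in SNU-466, against 852 and 821 in A-172 and 743 and 727 in AM-38. It was the most abundant of the 5 on the FPKM scale in every line, from 65.6% ± 0.00222 of the family in A-172 to 73.1% ± 0.254 in SNU-466. LOXL3 was at 1227 and 1247 CPM in SNU-466, against 2.05 and 2.93 in A-172 and 3.21 and 2.51 in AM-38, 433-fold above AM-38 (log2 fold change 8.75 for SNU-466 over AM-38, SE 0.08, adjusted p = 2.66e-88), and A-172 and AM-38 were not told apart (adjusted p = 0.349). LOX itself was at 21.6 and 22.1 CPM in SNU-466, against 96.3 and 95.3 in A-172 and 263 and 258 in AM-38, and LOXL1, the family member of elastic fibres, at 6.49 and 5.65 CPM in SNU-466, against 167 and 158 in A-172 and 14.5 and 14 in AM-38. AM-38 led for LOX and A-172 for LOXL1, and SNU-466 was lowest for both. LOXL4 was highest in A-172 too (39.1 ± 0.756 CPM), with 17.9 ± 0.372 CPM in AM-38 and 9.58 ± 0.373 CPM in SNU-466. After LOXL2, the next largest share belonged to LOXL1 in A-172 (21% ± 0.262), LOX in AM-38 (26% ± 0.0587) and LOXL3 in SNU-466 (26.1% ± 0.217).

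Genes for making and folding collagen were mostly higher in SNU-466 too. Of 16 tested, 12 were higher and 3 lower than in A-172 (all tested genes, 34.8% higher and 49.9% lower), and 13 were higher and 3 lower than in AM-38 (all tested genes, 40.1% higher and 51.6% lower). PLOD3, a lysyl hydroxylase, was at 1166 ± 56.6 CPM in SNU-466, against 163 ± 8.3 in A-172 and 38.1 ± 1.3 in AM-38, and PCOLCE, which speeds the removal of the collagen C-propeptide, at 958, 47.8 and 64.5 CPM. CREB3L1, a transcription factor of collagen secretion, went against this, with 73.7 ± 4.44 CPM in A-172 and 1.15 ± 0.0417 CPM in SNU-466. TGM2, the transglutaminase 2 gene, whose enzyme joins proteins by another kind of crosslink, was highest in AM-38 (1448 ± 51.7 CPM), with 65.1 ± 1.03 CPM in A-172 and 1.18 ± 0.341 CPM in SNU-466. Of 22 further matrix genes tested, 18 were higher and 4 lower in SNU-466 than in A-172, with the same counts against AM-38, where the shares of all tested genes are those just given. PRELP was at 833 ± 0.889 CPM in SNU-466 and at most 1.06 CPM on average in the others, and AEBP1, which binds fibrillar collagen, at 233 ± 6.45 CPM against 0.326 and 0.0722 CPM. The nidogen genes NID1 and NID2, which link laminin to type IV collagen, peaked in different lines: NID1 was at 193 ± 1.59 CPM in A-172 and 2.92 ± 0.0455 CPM in SNU-466, and NID2 at 0.202 and 311 ± 10.2 CPM. SPOCK1, a proteoglycan gene, was at 666 ± 14.6 CPM in SNU-466, with 19.4 in A-172 and 1.19 in AM-38.

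Side by side, the genes of both tables did not keep one order of lines. The tables were deposited apart and share no line, so these levels, all on library totals, were set beside each other and not tested. COL11A1 was higher in SNU-466 (7381 ± 95.2 CPM) than in LN-229 (1107 ± 116 CPM), its top line among the 8, and COL5A3 was at 1738 ± 35.9 CPM in SNU-466 and 33 ± 3.78 CPM in U-138MG. FN1 in SNU-466 (4945 ± 168 CPM) lay between the levels of SNU-1105 and U-87MG, and in A-172 and AM-38 under that of KNS-42. COL4A6 in AM-38 (66.8 ± 1.46 CPM) exceeded KNS-42 (36.6 ± 7.01 CPM). THBS2 in A-172 (325 ± 2.08 CPM) was near that of LN-229 (428 ± 171 CPM). LAMC1 had the narrowest span over the 11 lines, with LN-18 (246 CPM) at the bottom and SNU-466 (2239 CPM) at the top.

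**Figure D5:**
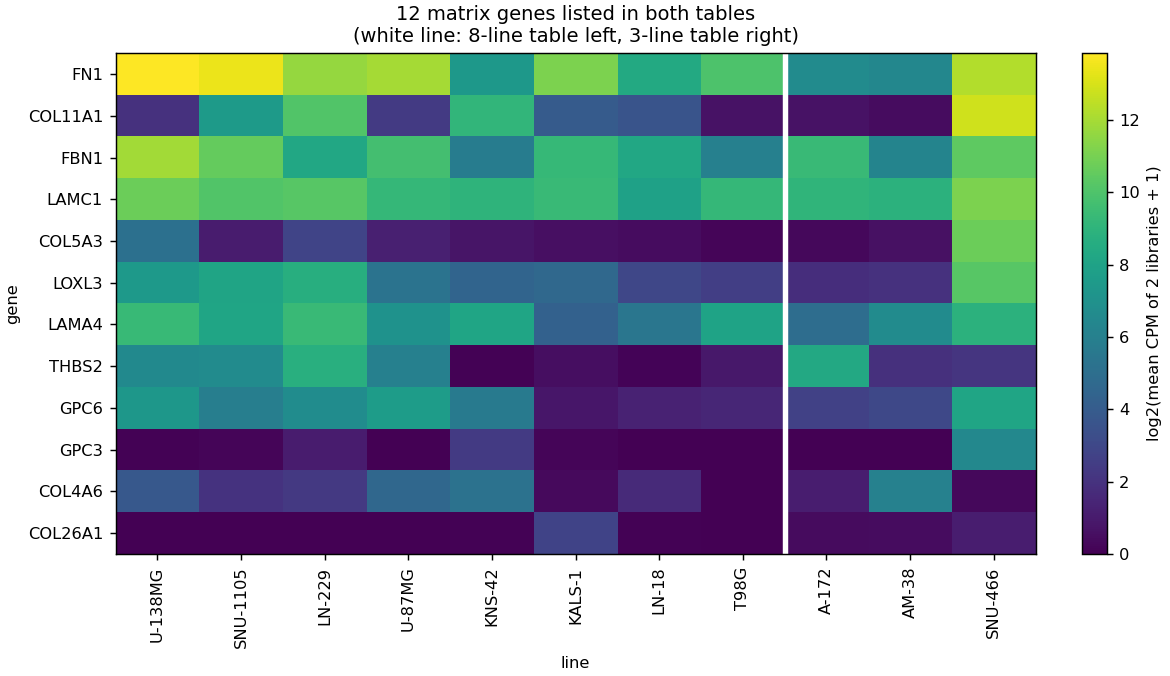
Each cell is the mean level of 1 gene over the 2 libraries of a line, as log2(CPM + 1), for 12 genes listed in both tables, with the 8-line table left of the white line. COL11A1, COL5A3, LOXL3 and GPC3 are brightest in SNU-466, and COL4A6 in AM-38.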

How the data were processed

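Poly(A) RNA of 22 libraries from 11 lines was sequenced with strand-specific kits, per the labels' protocols. Per the file headers, the authors deposited raw read counts, FPKM and a gene length for each listed gene. The tools named, with no role, per the submitters' processing notes were HISAT2 2.2.1, StringTie 1.3.3, HTSeq 0.6.0, FastQC 0.10.1 and cutadapt 1.9.1, with the build hg38/GRCh38; the annotation release and the choice of listed genes are not given in the sources used here. Library totals were worked back from counts, length and FPKM over genes of at least 20 FPKM and 200 reads, which agreed within 0.0258%; FPKM recomputed from them matched the deposited values within 0.01 for at least 99.9% of genes. Gene symbols matched for all but 1 gene of each table, with coordinates taken from GENCODE 29 (GRCh38). Each table was fitted apart with edgeR 4.0.16 (quasi-likelihood, 1 coefficient per line, library totals), after edgeR's filter on low counts by line, which all 18 and 58 genes passed, leaving 2095 and 5035 genes. A call needed a Benjamini-Hochberg adjusted p under 0.05 over all genes tested and a 2-fold difference; for the highest or lowest line, the largest p over its pairs was adjusted. Members and lists were chosen with earlier results of these data known. In each class, values of every library are given for the 3 genes with the largest range at 10 CPM or more and for genes leading a line at 100 CPM or more; of other lists, mainly the genes with the largest range are named. Alternatives were TMM and RLE factors, DESeq2 1.42.0, limma 3.58.1 on log2 CPM, no filter, a replicate block and each library left out. No sample was left out; 1 gene is counted but not reported here.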

Additional observations from a re-analysis of the deposited data

How the results depend on the processing

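Of the counts given for these genes, 170 of 176 values under other settings stayed within 1.5 times. The exception was the number of genes lowest in 1 of the 8 lines, 4 in all, which ran from 1 to 4 when single libraries were left out and was 6 without both T98G libraries. Of 76 differences between the highest and the next line, 65 kept their call under every setting tried (TMM, RLE, DESeq2, limma, no filter, replicate block, each library left out, and both T98G libraries left out, the last chosen after seeing the data), and 74 kept their direction. LAMA4 in LN-229 over U-138MG ran from -0.33 (without LN-229 replicate 1) to 0.39 on the log2 scale when single libraries were left out, and SDC1 in A-172 over AM-38 turned to -0.0575 with RLE factors; neither was called in the main test. The replicate number as a block left 18 genes differing among 8 lines and 338 of 504 pair tests called, and changed none of the 76 calls. Same-numbered libraries were not treated as paired in the main test. A correlation of library differences over 0.1 was found in 5 of 28 and 1 of 3 pairs of lines (range -0.20 to 0.16 and -0.07 to 0.13). Such correlations cannot show whether same-numbered libraries were handled together, which the labels do not say. TMM factors moved the median log2 difference of all genes by up to 0.73 (T98G) and RLE factors by up to 0.66 in the 8 lines, and in SNU-466 by -0.20 and -0.31. With 2 libraries per line, levels near the floor of 3 reads carry a large counting error: COL4A6 is called lowest in T98G on 0 reads there against 2 and 9 in KALS-1.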

Other observations

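Receptors that bind these matrix proteins also differed by line. ITGA11 and ITGA1, whose integrins bind collagen, were at 104 ± 3.72 and 159 ± 4.4 CPM in SNU-466, 2.67 ± 0.152 and 1.16 ± 0.259 CPM in A-172, and 1.64 ± 0.408 and 20.9 ± 1.37 CPM in AM-38. ITGA10, another collagen-binding integrin, was highest in AM-38 (34.9 ± 0.795 CPM) and lowest in SNU-466 (0.765 ± 0.00188 CPM). ITGA9 was at 8.07 ± 2.26 CPM in SNU-466 and 0.076 CPM in A-172. Of 11 receptor genes tested in the table of 3 lines, 6 were higher and 3 lower in SNU-466 than in A-172 (all tested genes, 34.8% higher and 49.9% lower), and 8 higher and 3 lower than in AM-38 (40.1% higher and 51.6% lower). In the table of 8 lines all 7 receptor genes differed among lines (background 99.7%). ITGA8, a receptor of nephronectin and fibronectin, was at 207 ± 87.7 CPM in T98G and at most 1.11 CPM on average in any other line, ITGA10 at 87.2 ± 5.5 CPM in U-138MG, ITGA9 at 104 ± 18.5 CPM in LN-229, and ITGB3 at 286 ± 31.7 CPM in U-87MG and 222 ± 60.9 CPM in LN-229.

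Transcription factor genes known for matrix or mesenchymal programmes were listed beside them. Whether these factors act on the matrix genes in these lines was not tested. SOX9, a factor of cartilage, was lowest in SNU-466, at 0.165 ± 0.0171 CPM against 264 ± 2.99 in AM-38 and 187 ± 2.87 in A-172. SOX6, a partner factor, was at 191 ± 7.09 CPM in SNU-466, with 0.552 in A-172 and 1.54 in AM-38. SOX10, a factor of glia and Schwann cells, was at 659 ± 26.3 CPM in SNU-466. MKX, a tendon factor, was at 509 ± 39.3 CPM in A-172, 7.99 ± 0.561 CPM in AM-38 and 0.0255 CPM in SNU-466. SNAI1 was at 16.5 ± 0.609 CPM in SNU-466 and 2.29 ± 0.339 CPM in A-172. PRRX1, a mesenchymal factor, was at 551 ± 13.2 CPM in U-138MG, 359.9 ± 147 CPM in SNU-1105, and no more than 1.65 ± 1.21 CPM in any of T98G, LN-18 and SNU-466. MEOX2 was at 121 ± 4.74 CPM in U-138MG and at most 1.29 CPM on average in any other of the 8 lines. FOXF1 was highest in LN-18 (365 ± 0.759 CPM) and T98G (165 ± 62 CPM), and TBX18 in KNS-42 (44.6 ± 1.2 CPM) and U-87MG (24.1 ± 2.8 CPM).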
